A study of Mus musculus with 8 samples.

Results

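The interleukin-1 (IL-1) family genes of the mouse colon were followed here as 9 listed symbols, all of which were among the 15859 genes of the count table: the ligands *Il1a*, *Il1b*, *Il33* and *Il18*, the receptor antagonist *Il1rn*, the decoy receptor *Il1r2*, and the signalling receptors *Il1r1*, *Il1rap* and *Il1rl1*. The list was given by symbol, with no threshold on measured values. All 9 passed the filter on low counts and were tested with the other genes (14371 tested in all), though *Il1a* passed it only through the WT day 15 mice. The distal colon of 8 mice was sequenced for RNA, in 4 groups of 2. WT day 0 mice and *Hsf1* null day 0 mice were age matched and untreated. WT day 15 mice and *Hsf1* null day 15 mice had received 10 mg/kg azoxymethane (AOM, a colon carcinogen) by intraperitoneal injection at 8 weeks of age and, from day 7, 1.5% dextran sulfate sodium (DSS, a polymer toxic to the colon lining) in the drinking water for 5 days. They were killed at day 15, once DSS had been withdrawn for 3 days. The treatment note among the labels instead places the kill directly after the DSS course. The labels give every mouse as a male of 10 weeks on a mixed BALB/c x 129SvEV background. The null allele is a germline deletion present in every cell type, so the groups do not separate the cells in which *Hsf1*, the master transcription factor of the heat shock response, was missing.

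IL-1α and IL-1β are proinflammatory ligands that bind the receptor encoded by *Il1r1*, which recruits the shared co-receptor encoded by *Il1rap* and signals through MyD88 to NF-κB. The antagonist encoded by *Il1rn* occupies the same receptor without signalling, and the receptor encoded by *Il1r2* binds the ligands but lacks a signalling domain. IL-33 is a nuclear alarmin of stromal and barrier cells whose receptor, ST2 (*Il1rl1*), also pairs with the *Il1rap* product, whereas IL-18 is made largely by the intestinal epithelium and matured by inflammasome caspases.

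Total counts ran from 2553348 to 12440257 per mouse, with both of the smallest libraries at day 0. Values are given as CPM, counts scaled to an adjusted library of 1000000, on which 1 count was worth 0.0821 to 0.397 CPM. *Hsf1* itself was at 36.5 to 50.4 CPM in the 4 WT mice and at 9.09 to 13.95 CPM in the 4 null mice, so reads of the targeted gene remained in null mice but the genotypes did not overlap. Mice are numbered 1 and 2 within a group as in the labels. Among the members, 1 library stood apart. WT day 15 mouse 2 exceeded its group mate 7.64-fold for *Il1a*, 6.27-fold for *Il1b*, 6.21-fold for *Il1rl1* and 6.08-fold for *Il33*, differences that lay at or above the 99.5th percentile of all tested genes within that pair. The members' calls at day 15 are therefore also given without that mouse.

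**Figure D1:**
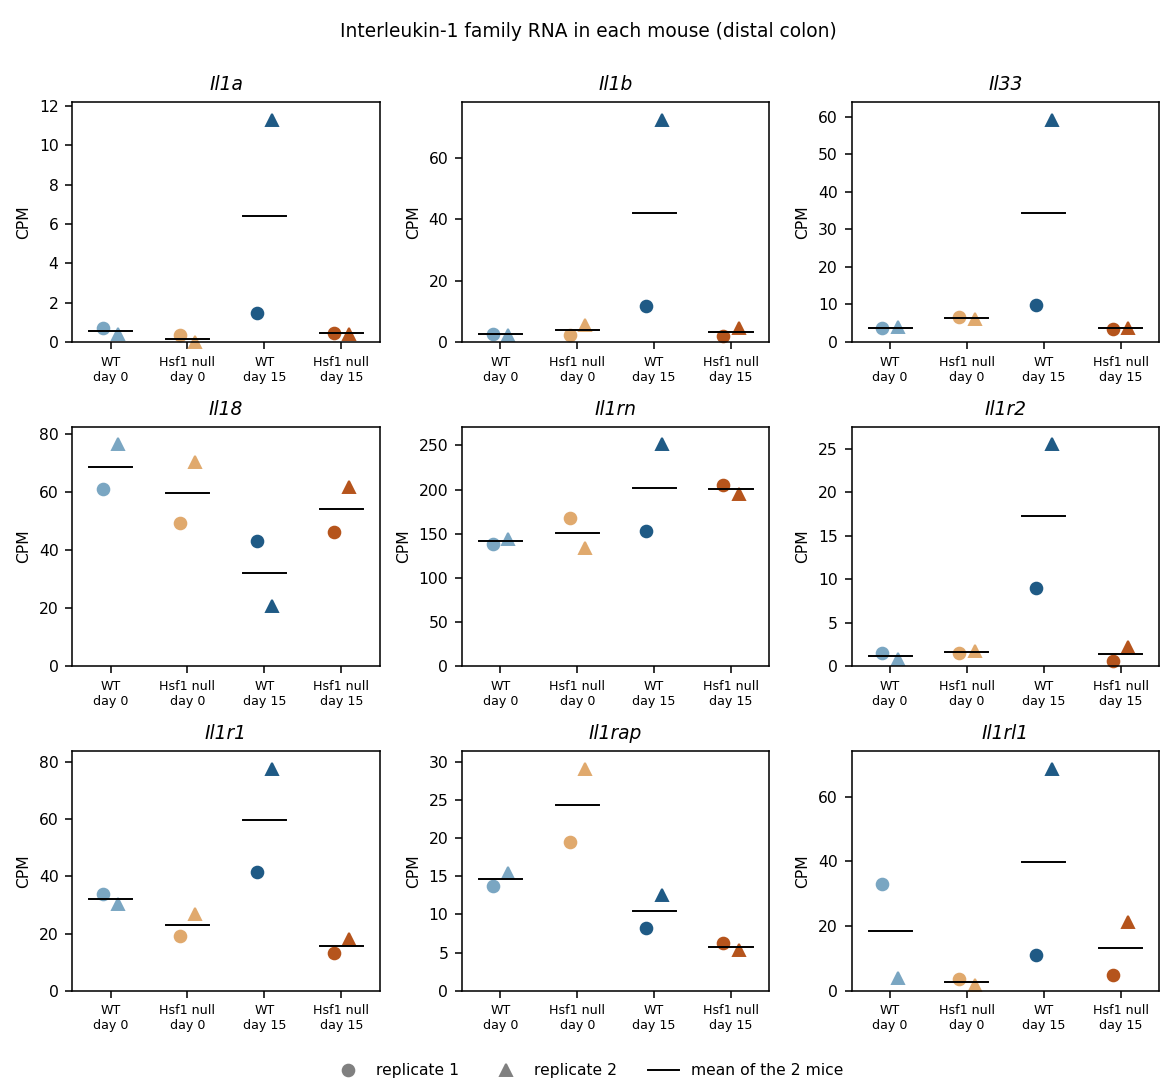
CPM of the 9 members in each of the 8 mice, with 1 panel a gene, 2 mice a group (circle for replicate 1, triangle for replicate 2) and a line at the group mean, on linear axes from 0. *Il1a*, *Il1b*, *Il33*, *Il1r2* and *Il1r1* were highest in the 2 WT day 15 mice, with mouse 2 above mouse 1 each time.

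At day 15 the IL-1 ligands *Il1a* and *Il1b*, the alarmin *Il33* and the receptors *Il1r1* and *Il1r2* all stood higher in both WT mice than in both *Hsf1* null mice. A gene was called when its Benjamini-Hochberg adjusted p in edgeR's quasi-likelihood test was below 0.05 and its log2 fold change (WT over null) exceeded 1 in size. By that rule 4 of the 9 members were called higher in WT, namely *Il1b*, *Il1r1*, *Il1r2* and *Il33*, and none was called lower, beside 1.25% of all tested genes called higher and 1.91% lower. With only the 2 day 15 groups fitted none was called, and these 4 had log2 fold changes of 1.91 to 3.64 (edgeR adjusted p from 0.0912 to 0.120). Leaving out *Il1a*, which had to differ to be tested, the groups did not overlap for 5 of the other 8 members with WT higher and for 1 with WT lower, against 28.6% and 26.2% of all tested genes. The median log2 fold change was 1.76 over these 8 members, beside 0.04 over all tested genes.

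*Il1b* (ENSMUSG00000027398) was at 11.6 and 72.5 CPM in WT mice 1 and 2 and at 1.86 and 4.68 CPM in the null mice. Even the lower WT value exceeded both null values, and the log2 fold change was 3.66 (SE, its standard error, 0.83, edgeR adjusted p = 0.0461). *Il1a* (ENSMUSG00000027399), which acts largely as a cell-associated alarm signal, had 17 and 107 counts in the WT mice and 3 in each null mouse. These counts correspond to 1.48 and 11.3 CPM against 0.465 and 0.401 CPM, again without overlap. The log2 fold change of *Il1a* was 3.83 (SE 1.06, edgeR adjusted p = 0.0741), which missed the threshold although it was the largest fitted log2 fold change of the 9. DESeq2 called it beside the 4 members called by edgeR (log2 fold change 3.88, DESeq2 adjusted p = 0.0196), a call given only as a description, since *Il1a* was tested through the group where it is high. From the pooled counts alone the ratio was 13.7, with an exact 95% interval of 6.13 to 38.1 that covers counting error only.

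*Il33* (ENSMUSG00000024810) stood at 9.74 and 59.2 CPM in WT mice 1 and 2 against 3.57 and 3.74 CPM in the null mice. The null mice lay close together while the WT mice did not, and the difference passed the threshold at a log2 fold change of 3.23 (SE 0.71, edgeR adjusted p = 0.0443). *Il18* (ENSMUSG00000039217) ran the other way, at 43.4 and 20.7 CPM in the 2 WT animals and 46.35 and 62.0 CPM in null mice. Both WT values lay below both null values, but the gap was narrow and the log2 fold change of -0.76 (SE 0.36) did not pass (edgeR adjusted p = 0.241).

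The 2 IL-1 ligand genes lie side by side on chromosome 2 of GRCm38, both on the minus strand, with *Il1a* at 129299610 to 129309972 and *Il1b* at 129364570 to 129371139. *Il33* lies apart from them, on the plus strand of chromosome 19 at 29925114 to 29960718. The 250 bases before a start of these 3 genes are shown, from RefSeq's GRCm38.p6 annotation, 5′ to 3′ on the gene's strand. These 3 windows were chosen because they hold the letters TATAAA 20 to 40 bases before the start, marked in capitals. The *Il1a* window is chr2:129309973-129310222 (minus strand), the *Il1b* window is chr2:129371140-129371389 (minus strand), and the *Il33* window is that of the second of its 2 annotated starts, chr19:29945540-29945789 (plus strand), since that of the first lacks these letters at that distance.
Il1a: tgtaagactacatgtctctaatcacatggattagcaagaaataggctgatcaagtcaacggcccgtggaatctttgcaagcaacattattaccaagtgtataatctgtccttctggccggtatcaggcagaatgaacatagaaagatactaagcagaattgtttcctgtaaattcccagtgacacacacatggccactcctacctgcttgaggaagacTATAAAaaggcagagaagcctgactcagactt
Il1b: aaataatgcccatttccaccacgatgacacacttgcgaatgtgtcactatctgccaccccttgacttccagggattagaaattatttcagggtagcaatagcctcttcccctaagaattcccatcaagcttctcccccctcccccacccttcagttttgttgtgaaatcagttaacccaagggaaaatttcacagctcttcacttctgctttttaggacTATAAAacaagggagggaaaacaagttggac
Il33: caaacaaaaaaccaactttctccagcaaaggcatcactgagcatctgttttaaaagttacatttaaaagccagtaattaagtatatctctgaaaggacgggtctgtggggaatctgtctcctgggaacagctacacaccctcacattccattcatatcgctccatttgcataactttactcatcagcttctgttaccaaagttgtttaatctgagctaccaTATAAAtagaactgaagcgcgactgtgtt
The capitals begin 32 bases before the start of *Il1a*, 31 before *Il1b* and 29 before this start of *Il33*. They were found in 3 of the 14 RefSeq promoters of the 9 members and in 1.99% of all 32851 promoters, and this motif was looked for only after the sequences had been read. The letters TTCNNGAA, the core of the heat shock element bound by HSF1, were in 0 of the 14 windows and in 7.17% of all promoters, and the longer form that has GAANN before these letters was in 0 windows and in 0.466% of promoters, on either strand. An NF-κB motif, GGGNN followed by TTTCC, was found 1 time, before a start of *Il1rn*, and in 1.41% of all promoters. A match is a description of letters in these windows and not of binding.

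For the antagonist the genotypes overlapped. *Il1rn* (ENSMUSG00000026981, chromosome 2, 24336853 to 24351494) was at 153 and 251 CPM in the WT day 15 mice and at 205 and 195 CPM in the null mice. The null values fell between the WT values, and the log2 fold change was 0.01 with a 95% interval of -0.59 to 0.62 (edgeR adjusted p = 0.982). The decoy receptor *Il1r2* (ENSMUSG00000026073) was at 8.95 and 25.5 CPM in the 2 WT and at 0.62 and 2.27 CPM in null mice. The lower WT mouse lay well above the higher null mouse, and *Il1r2* passed the threshold with a log2 fold change of 3.54 (SE 0.72, edgeR adjusted p = 0.0341).

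Among the signalling receptors, *Il1r1* (ENSMUSG00000026072) was at 41.6 and 77.6 CPM in WT mice 1 and 2 and at 13.2 and 17.9 CPM in the null mice. The groups were apart, and its log2 fold change of 1.93 (SE 0.36) had the smallest adjusted p of the members (edgeR adjusted p = 0.0274). The co-receptor *Il1rap* (ENSMUSG00000022514, chromosome 16, 26581704 to 26730117) was at 8.26 and 12.6 CPM in the 2 WT and at 6.20 and 5.35 CPM in null mice. WT was again higher in both mice, but the log2 fold change of 0.85 (SE 0.38) did not pass (edgeR adjusted p = 0.213). The ST2 gene *Il1rl1* (ENSMUSG00000026069) was at 11.04 and 68.6 CPM in the 2 WT and at 4.96 and 21.4 CPM in null mice. Here the groups overlapped, and the log2 fold change of 1.58 (SE 0.98) had an edgeR adjusted p of 0.357.

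**Figure D2:**
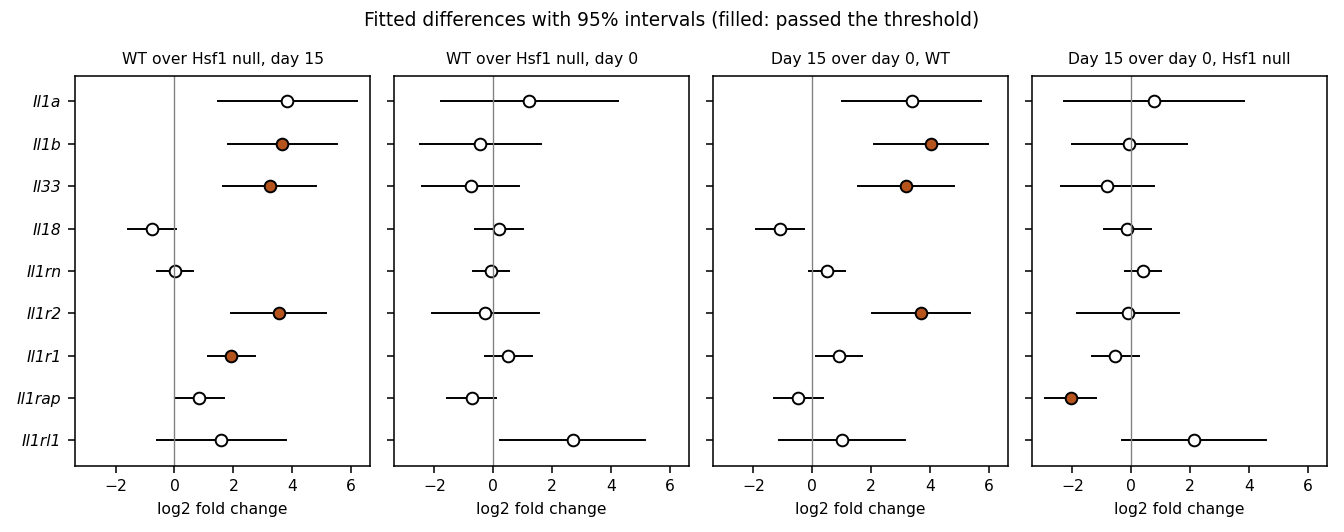
Fitted log2 fold change of each member (points) with its 95% interval (lines) in the 4 comparisons, 2 mice against 2 in each; filled points passed the threshold. *Il1b*, *Il33* and *Il1r2* are filled both for WT over null at day 15 and for day 15 over day 0 in WT, whereas *Il1rap* is the 1 filled point in null mice.

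These calls depended on single libraries. With 1 mouse left out, its group mate was assumed to vary like the other groups. Without WT day 15 mouse 2 *Il1a* no longer passed the filter on low counts, none of the 8 members still tested was called, and the log2 fold changes of the 4 were 1.81 for *Il1b*, 1.41 for *Il33*, 2.60 for *Il1r2* and 1.42 for *Il1r1* (edgeR adjusted p from 0.150 to 0.301). That of *Il1rl1* turned to -0.26. None was called without null day 15 mouse 1, where the 4 were at 3.15, 3.18, 2.90 and 1.72 in the same order (edgeR adjusted p from 0.180 to 0.261), or without either null day 0 mouse, although leaving out a null day 0 mouse kept the values of *Il1b*, *Il33*, *Il1r2* and *Il1r1* at 3.66, 3.23, 3.53 to 3.54 and 1.93 and moved the edgeR adjusted p values to 0.0576 to 0.0847. *Il1r1* and *Il1r2* were the 2 called without null day 15 mouse 2 or without either WT day 0 mouse. Without WT day 15 mouse 1 the 4 were called, and *Il1a* was at a log2 fold change of 4.66 (edgeR adjusted p = 0.0281), again as a description.

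Several marker lists of other cell types also differed between the groups. The summed level of the 9 neutrophil markers in the table (11 listed) was 138 and 533 CPM in the WT day 15 mice, 6.98 and 24.2 CPM in the null day 15 mice and 4.31 to 12.1 CPM at day 0, and 8 could be tested. Of these 8, 5 passed the filter on low counts only through the WT day 15 mice and so had to differ, among them the granule gene *Ngp*, at 0 in every other mouse. Of the other 3, *S100a9* and *Retnlg* were called higher in WT at day 15. All 10 macrophage and monocyte markers were higher in both WT mice than in both null mice at day 15, with sums of 1594 and 2442 CPM against 419 and 965 CPM and 497 to 1161 CPM at day 0. Of all tested genes 28.6% were apart in that direction, and 2 of the 10 markers were called, beside 1.25% of all tested genes. Sums for fibroblasts were 2743 and 2614 CPM in WT against 568 and 1726 CPM in null mice, with 0 of 8 called, and ran from 938 to 2787 CPM at day 0, where WT mouse 1 lay above both WT day 15 mice. Sums for endothelium were 329 and 262 CPM against 75.0 and 156 CPM, with 1 of 7 called, and 101 to 159.8 CPM at day 0. Epithelial markers ran lower in WT, at 11108 and 14454 CPM against 25330 and 19693 CPM, with 0 of 10 called, and at 11683 to 21665 CPM at day 0. Of the 10, 9 were lower in both WT mice than in both null mice at day 15 and 0 were higher, against 26.2% and 28.6% of all tested genes. In bulk tissue, fewer cells of a type and less RNA per cell cannot be told apart, and the part of these cell types in the differences of *Il1b*, *Il33*, *Il1r1* and *Il1r2* was not tested.

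At day 0, in untreated mice, no member separated the genotypes by test. None of the 9 was called, as none of the tested genes was (0%), and DESeq2 called none of the 9 either. The targeted gene *Hsf1* was not called there either (log2 fold change 1.57, SE 0.30, edgeR adjusted p = 0.775), although its genotypes did not overlap. A missing call at day 0 therefore does not show that a member was equal between genotypes. At an unadjusted p below 0.05 there was 1 of 9, against 6.29% of all tested genes. That gene was *Il1rl1*, at 33.0 and 3.97 CPM in the 2 WT animals and 3.69 and 1.80 CPM in null mice, a log2 fold change of 2.69 (SE 1.11, edgeR adjusted p = 0.775). A single WT mouse carried that difference, 8.32-fold above its group mate, and without it the value was 0.40. The WT mice lay above the null mice for 3 members and below them for 2, against 18.4% and 18.7% of tested genes. *Il33* was 1 of the 2, at 3.62 and 3.97 CPM in the 2 WT animals and 6.65 and 6.11 CPM in null mice, the reverse of its order at day 15.

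From day 0 to day 15 in WT mice, the ligand genes *Il1b* and *Il33* and the decoy receptor gene *Il1r2* rose, 3 of 9 members called higher beside 3.47% of all tested genes, and 0 fell, beside 4.27%. *Il1b* was at 2.64 and 2.38 CPM in the WT day 0 mice and rose by 4.03 on the log2 scale (SE 0.87, edgeR adjusted p = 0.0265). *Il1r2*, at 1.57 and 0.794 CPM at day 0, rose by 3.70 (SE 0.75, edgeR adjusted p = 0.0213), and *Il33* by 3.19 (SE 0.73, edgeR adjusted p = 0.0308). For these 3 genes both day 15 mice lay above both day 0 mice, as they did for 5 of the 8 members other than *Il1a*, while they lay below for 2, against 31% and 31.5% of all tested genes. *Il1a*, with 7 and 1 counts in the day 0 mice, had a log2 fold change of 3.37 (SE 1.06, edgeR adjusted p = 0.0760) and a counting ratio of 9.41 (exact 95% interval 4.63 to 22.3, for counting error only). *Il18* was at 61.0 and 76.6 CPM at day 0, above both day 15 mice, with a log2 fold change of -1.09 (SE 0.37, edgeR adjusted p = 0.0885). *Il1r1* had 0.89, *Il1rn* 0.51, *Il1rap* -0.48 and *Il1rl1* 1.02 as log2 fold changes, none past the threshold. Over the same days 5 of 6 smooth muscle and 2 of 10 epithelial markers were called lower. Called higher were 4 of 10 macrophage and monocyte markers, 2 of 8 T cell markers and 2 of the 3 neutrophil markers not tested only through WT day 15. The part of these cell types in the rises of *Il1b*, *Il33* and *Il1r2* was not tested. Without WT day 15 mouse 2 none of the 8 members still tested was called, and the log2 fold changes were 2.18 for *Il1b*, 2.77 for *Il1r2* and 1.37 for *Il33*. None of the 9 was called without either WT day 0 mouse, where the values were 3.99 to 4.13 for *Il1b*, 3.46 to 4.41 for *Il1r2* and 3.11 to 3.25 for *Il33*. Without either null day 0 mouse 2 were called, *Il1b* and *Il1r2*, and without WT day 15 mouse 1 *Il18* was called as well as the 3, as was *Il1a*, which had to differ to be tested.

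In the null mice the same interval moved 1 member past the threshold, the co-receptor *Il1rap*. It was at 19.5 and 29.1 CPM in the null day 0 mice and at 6.20 and 5.35 CPM at day 15, and fell by 2.06 on the log2 scale (SE 0.39, edgeR adjusted p = 0.0169), beside 6.48% of all tested genes called lower and 5.3% called higher. The day 0 and day 15 null mice did not overlap for *Il1rap*. Day 15 lay above for 3 members and below for 3, against 31% and 30.3% of tested genes. In WT mice *Il1rap* went from 13.7 and 15.5 CPM to 8.26 and 12.6 CPM, also without overlap but within the error of the test. The call was lost without null day 0 mouse 2 (log2 fold change -1.76, edgeR adjusted p = 0.144), without null day 15 mouse 1 (-2.16, 0.0532) and without null day 15 mouse 2 (-1.95, 0.0609). *Il1b* was at 2.30 and 5.39 CPM at day 0 and 1.86 and 4.68 CPM at day 15, overlapping, with a log2 fold change of -0.07 and a 95% interval of -2.02 to 1.88. *Il1r2* had -0.11 (95% interval -1.85 to 1.63), *Il33* -0.81 (-2.40 to 0.78) and *Il1r1* -0.54 (-1.34 to 0.26).

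Whether the change from day 0 to day 15 itself differed between genotypes was tested as an interaction. In edgeR none of the 9 members passed (smallest adjusted p 0.380), and 0.00696% of all tested genes did. At an unadjusted p below 0.05 there were 5 of the 9, against 8.61% of tested genes. The differences in change, WT minus null on the log2 scale, were 4.10 for *Il1b* (SE 1.22), 4.0 for *Il33* (1.02), 3.81 for *Il1r2* (1.07), 1.58 for *Il1rap* (0.53) and 1.43 for *Il1r1* (0.50). DESeq2 called 2 of them, *Il33* (adjusted p = 0.00586) and *Il1b* (adjusted p = 0.0106), and gave no adjusted p for *Il1r2* (log2 difference 3.89). Without WT day 15 mouse 1, edgeR called *Il33*. Without WT day 15 mouse 2 the difference in change was 2.18 for *Il33* (edgeR adjusted p = 0.714) and 2.29 for *Il1b* (edgeR adjusted p = 0.870).

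The balance of antagonist to agonist RNA was lower in the WT day 15 mice than in any other mouse. Per kilobase of exon, *Il1rn* exceeded the sum of *Il1a* and *Il1b* 14.5-fold and 18-fold in the WT day 0 mice, 22.1-fold and 8.57-fold in the null day 0 mice and 30.6-fold and 13.3-fold in the null day 15 mice. In the WT day 15 mice the ratio was 4.06 and 1.04. Its size, though not its order among the mice, depends on the exon length taken for *Il1rn*. It did not overlap the other groups, but 2 mice against 2 cannot give an exact two-sided permutation p below 0.333. The denominator rested on 7 to 38 counts in the 6 other mice and on 150 and 794 in the WT day 15 mice. The signalling receptor *Il1r1* exceeded its decoy *Il1r2* 2.36-fold to 11.4-fold in the other 6 mice, where *Il1r2* had 2 to 18 counts, and was 1.39 and 0.911 times its level in the WT day 15 mice.

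**Figure D3:**
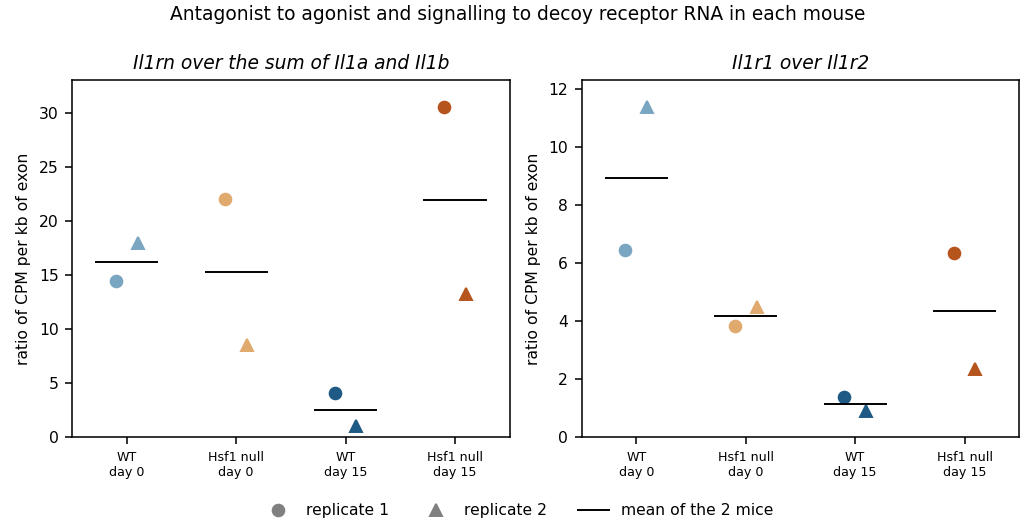
Ratios of CPM per kilobase of exon in each mouse (circle for replicate 1, triangle for replicate 2, line at the mean of the 2) on linear axes from 0, with *Il1rn* over the sum of *Il1a* and *Il1b* at left and *Il1r1* over *Il1r2* at right. In both panels the 2 WT day 15 mice, at 4.06 and 1.04 and at 1.39 and 0.911, sit below the other 6.

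Levels of different genes were compared per kilobase of exon. The length taken was that of all annotated exons of a gene joined, 5.54 kb for *Il1rn* and 1.03 kb for *Il18*. By this measure *Il18* was the highest member in the untreated colon, at 66.7 ± 10.7 CPM per kb in WT and 58.1 ± 14.3 in null mice (SD, n = 2), and *Il1rn* was next, at 25.6 ± 0.72 and 27.3 ± 4.32. In CPM the order of these 2 was the reverse, with *Il1rn* at means of 142 and 151 CPM and *Il18* at 68.8 and 59.9 CPM. Each was apart from its neighbour in the order in both genotypes. *Il1r1* followed, at 5.03 and 3.61 CPM per kb on average, and *Il1a* last, at 0.274 and 0.0832. By group means the null day 15 mice also had *Il18*, *Il1rn* and *Il1r1* at the top and *Il1a* at the bottom, at 52.6 ± 10.7, 36.2 ± 1.31, 2.44 ± 0.53 and 0.219 ± 0.023 CPM per kb. In null day 15 mouse 2, however, *Il1rl1* (3.10) lay above *Il1r1* (2.81). In the WT day 15 mice the order was *Il1rn* (36.5 ± 12.5), *Il18* (31.1 ± 15.6), *Il1b* (22.0 ± 22.6), *Il33* (11.9 ± 12.1), *Il1r1* (9.36 ± 4.003), *Il1r2* (9.04 ± 6.15), *Il1rl1* (5.78 ± 5.90), *Il1a* (3.24 ± 3.52) and *Il1rap* (0.916 ± 0.268). In that group the ranges of the 2 mice overlapped for every neighbouring pair in the order.

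Of the receptor genes, 3 members lie in 1 cluster on the plus strand of chromosome 1, where 6 protein-coding receptor genes follow each other over 478 kb of GRCm38. Their order is *Il1r2* (40074079 to 40125231), *Il1r1* (40225080 to 40317257), *Il1rl2* (40324610 to 40367562), *Il1rl1* (40429570 to 40465415), *Il18r1* (40465552 to 40500854) and *Il18rap* (40515362 to 40551705). *Il1rl2*, which encodes the IL-36 receptor, was at 2.17 and 1.69 CPM in the WT day 15 mice, below its 2.35 and 2.78 CPM in the WT day 0 mice, and at 1.09 and 0.935 CPM in the null day 15 mice. *Il18rap*, the accessory chain of the IL-18 receptor, was at 3.65 and 11.1 CPM in the 2 WT animals and 1.24 and 2.005 CPM in null mice at day 15, a log2 fold change of 2.16 (SE 0.66, edgeR adjusted p = 0.0956). *Il18r1*, the ligand-binding chain, had 1.55 (0.70, edgeR adjusted p = 0.218) and *Il1rl2* 0.93 (0.64, edgeR adjusted p = 0.406). The WT mice were above the null mice for these 3 genes, against 28.6% of all tested genes apart in that direction. Only *Il1r1* and *Il1r2* of the 6 were called, beside 1.25% of all tested genes called higher.

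**Figure D4:**
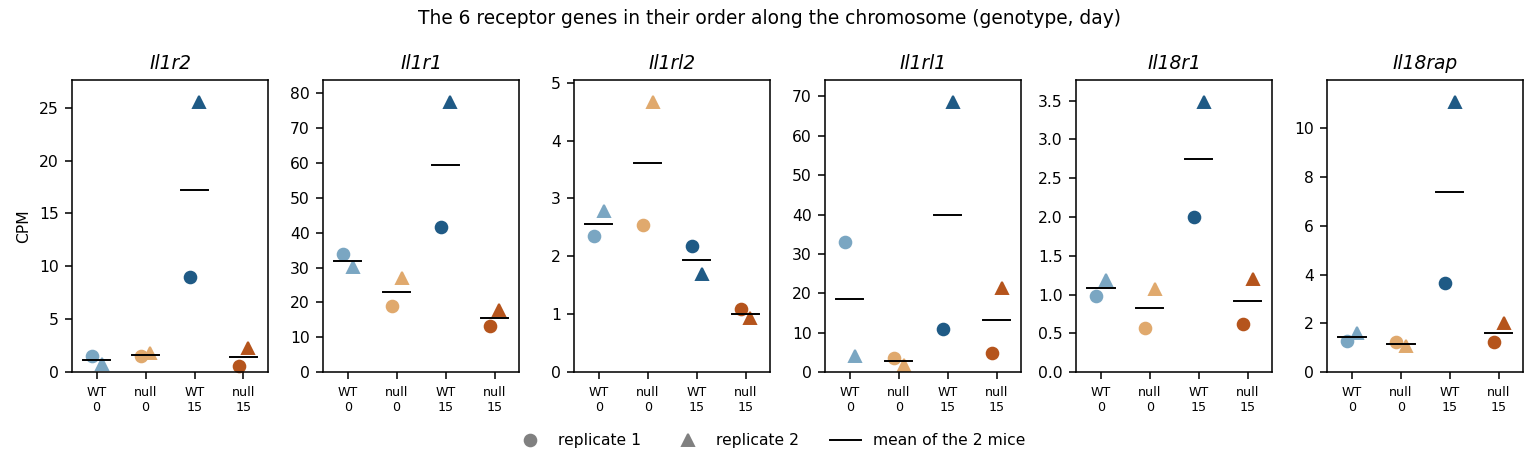
CPM of the 6 receptor genes of chromosome 1 in each mouse, panels in chromosomal order, with circles for replicate 1, triangles for replicate 2 and lines at the mean of the 2 mice, on linear axes from 0. *Il1rl2* was highest in a null day 0 mouse, at 4.67 CPM, while the other 5 were highest in WT day 15 mouse 2.

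The wider pathway was read from 5 lists. Of the other IL-1 family ligands, 5 were listed and 2 were in the table. *Il1f9*, which encodes IL-36γ, was tested. It had 54 counts over the 2 WT day 15 mice, 4 over the null day 15 mice and 0 over the WT day 0 mice. Against a floor of 3 counts over the WT day 0 group, its level in WT mice was at least 10.9-fold higher at day 15. It passed the filter on low counts only through the WT day 15 mice and so had to differ, and its call there (edgeR adjusted p = 0.0380) is given as a description. Between genotypes at day 15 the counting ratio was 8.97 (exact 95% interval 3.31 to 34.1, for counting error only), and it was not called (edgeR adjusted p = 0.118). Of the other receptors and inhibitors, 0 of 5 tested were called between genotypes at day 15, beside 1.25% of all tested genes called higher and 1.91% lower. For 4 of the 5 both WT mice lay above both null mice, against 28.6% of all tested genes. The median difference of the 5 was 1.28 on the log2 scale, beside 0.04 over all tested genes. *Il18bp*, the soluble inhibitor of IL-18, was at 12.0 and 7.14 CPM in WT day 0 mice and at 27.0 and 89.7 CPM in WT day 15 mice, and rose by 2.55 on the log2 scale (SE 0.52, edgeR adjusted p = 0.0223). In null mice it was at 8.86 and 8.98 CPM at day 0 and at 25.4 and 22.5 CPM at day 15, without overlap and close to WT day 15 mouse 1, with a log2 fold change of 1.42 (SE 0.52, edgeR adjusted p = 0.0917). The difference in change between genotypes, 1.12, did not pass (edgeR adjusted p = 0.693).

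Genes that process the ligands or transmit their signal were also listed. None of the 13 tested processing genes and none of the 20 tested signalling genes was called between genotypes at day 15, beside 1.25% of all tested genes called higher and 1.91% lower, with median log2 fold changes of 0.32 and 0.01 beside 0.04 over all tested genes. From day 0 to day 15 in WT mice 1 of the 20 signalling genes was called higher and 1 lower, near the 3.47% and 4.27% of all tested genes. None of the 13 processing genes was called. In WT mice *Myd88*, the adaptor of the receptors, was at 35.3 and 34.9 CPM at day 0 and at 72.2 and 109.8 CPM at day 15, and rose by 1.37 (SE 0.32, edgeR adjusted p = 0.0328). *Peli2*, a ubiquitin ligase of the pathway, fell by 1.36 (SE 0.30, edgeR adjusted p = 0.0278). In null mice the log2 fold changes were 0.77 for *Myd88* and -0.85 for *Peli2*, neither called (edgeR adjusted p = 0.127 and 0.0853), though day 0 and day 15 did not overlap for either. Over the same days in null mice 1 of the 13 processing genes was called higher and 0 lower. Of the 20 signalling genes 0 were called higher and 1 lower. These tallies lie near the 5.3% called higher and 6.48% lower of all tested genes. In null mice *Cma1*, a mast cell chymase listed because such proteases cleave IL-1 family ligands, was at 22.2 and 17.6 CPM at day 0 and at 89.4 and 45.7 CPM at day 15, and rose by 1.75 (SE 0.51, edgeR adjusted p = 0.0493). *Tab3*, a subunit of the TAK1 kinase complex, fell by 1.17 there (SE 0.33, edgeR adjusted p = 0.0452). In WT mice *Cma1* had -0.75, with overlap, and *Tab3* -0.58, without overlap, neither called (edgeR adjusted p = 0.366 and 0.269). The interaction passed for none of *Myd88*, *Peli2*, *Cma1* and *Tab3* (edgeR adjusted p from 0.428 to 0.756). Mast cell markers in the table summed to 75.2 and 81.7 CPM in the 2 WT animals and 60.5 and 66.8 CPM in null mice at day 0, and to 149.7 and 147 CPM in the 2 WT animals and 98.7 and 132 CPM in null mice at day 15. From day 0 to day 15 in null mice 2 of the 5 tested mast cell markers were called higher, the proteases *Mcpt1*, at a log2 fold change of 4.44, and *Mcpt2*, at 4.22 (edgeR adjusted p = 0.0123 for each), beside 5.3% of all tested genes called higher and 6.48% lower, with a median of 3.92 over the 5, while the receptor gene *Kit* had -0.19. In WT mice *Cpa3* and *Hdc* had passed the filter only through the day 15 group, and of the other 3 markers *Mcpt1* and *Mcpt2* were called higher and *Kit* lower, beside 3.47% and 4.27% of all tested genes, with a median of 3.09. The part of mast cells in the change of *Cma1* was not tested.

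Of 24 listed genes commonly induced by IL-1, 22 were tested (all but *Il6* and *Csf2*) and 8 were called higher in WT than in null mice at day 15, with 0 lower. *Csf3*, *Cxcl2* and *Il11* passed the filter on low counts only through the WT day 15 mice and so had to differ. Of the other 19, 6 were called higher, beside 1.25% of all tested genes, and their median log2 fold change was 2.37. The genotypes overlapped for *Ccl20*, *Ptgs2* and *Mmp13*, named after their values were seen, at log2 fold changes of 0.19, 0.96 and 2.62. The 8 called were the neutrophil-attracting chemokines *Cxcl1*, *Cxcl2* and *Cxcl5*, the granulocyte growth factor *Csf3*, the adhesion molecule *Vcam1*, the acute phase gene *Saa3*, the iron-binding *Lcn2* and the RNase *Zc3h12a*. *Csf3* had 73 and 140 counts in the WT day 15 mice, 0 and 1 in the null day 15 mice and 0 in every day 0 mouse. Its counting ratio at day 15, over counts pooled from the 2 mice of each group, was 141.5 (exact 95% interval 25.1 to 5614, for counting error only). Against a floor of 3 counts over the WT day 0 group, it was at least 43.1-fold higher in WT mice at day 15 than at day 0. Both values are a description, since *Csf3* was tested through the group where it is high. In WT mice 9 of the other 19 rose from day 0 to day 15, beside 3.47% of all tested genes called higher, and with the 3 genes above 11 of the 22 were called. In null mice 1 of the 22 did, a share near the 5.3% of all tested genes, and this gene, *Saa3*, rose by 2.76 (SE 0.46, edgeR adjusted p = 0.0140), from 5.66 and 5.39 CPM to 35.2 and 40.4 CPM. In the WT day 15 mice *Saa3* was at 489 and 1184 CPM. Several of these genes are also made by neutrophils or macrophages, whose marker sums are given above, and the part of those cells was not tested. Over all 5 lists, the genes that had to differ included, the 8 calls between genotypes at day 15 became 1 without null day 15 mouse 1 or either null day 0 mouse, 2 without WT day 15 mouse 2, and 12 without WT day 15 mouse 1. The 15 calls of the 5 lists for the days in WT mice became 6 and 3 without WT day 0 mouse 1 or 2 and 2 without WT day 15 mouse 2, and the 3 calls in null mice became 1 without either WT day 0 mouse and 0 without null day 0 mouse 2.

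**Figure D5:**
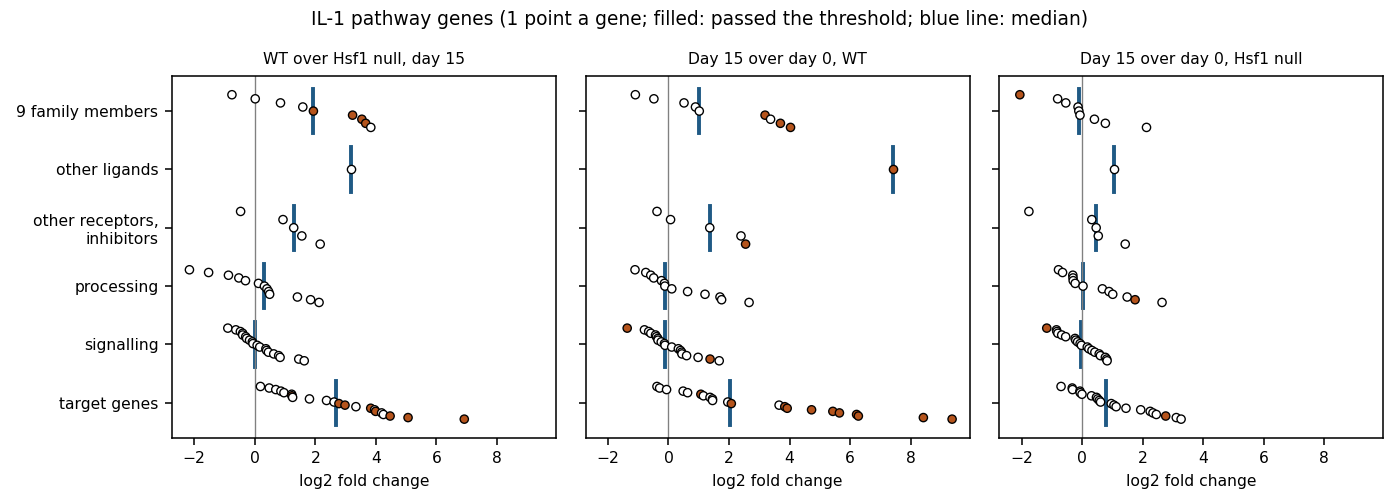
Log2 fold change of each tested gene (points) of the 9 members and the 5 pathway lists in 3 comparisons; filled points passed the threshold and blue lines mark each list's median. The 22 target genes lie to the right of 0 at day 15, with a median of 2.70 (2.37 without the 3 that were tested only through the WT day 15 mice), while the signalling genes centre on 0.01.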

How the data were processed

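RNA of the distal colon of 8 mice was sequenced after bead homogenization, column extraction and stranded poly(A) library preparation. Per the study's methods and the submitters' processing notes, the authors aligned reads to mm10 with STAR and normalized with DESeq2; the counting tool, annotation and strand setting are not given in the sources used here. The deposited raw counts per gene were used; the authors' normalized table was not. Library sizes were scaled by TMM, and 1 model of the 4 groups was fitted to the genes whose normalized count averaged over 5, with edgeR 4.0.16 (quasi-likelihood F test, R 4.3.3), p values being adjusted by Benjamini-Hochberg over the 14371 tested genes. Calls needed an adjusted p below 0.05 and an absolute log2 fold change over 1. CPM per kb used the joined length of all annotated exons of a gene in GENCODE M21 (GRCm38). A standard error is the log2 fold change over the root of F, and 95% intervals use the moderated degrees of freedom. Ratios of pooled counts carry exact conditional binomial intervals, for counting error only.

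Groups came from the sample titles and characteristics. Replicates were separate mice, but 2 mice a group make each p value a measure of the spread between few samples; replicates differed beyond counting noise. The scripts were tested on simulated counts. Alternatives were DESeq2 1.42.0, its size factors, 2 other filters, no fold threshold, a replicate block, thinned counts, only the groups compared, and each library left out.

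All members are named. Of each pathway list, the called gene that changed most, up and down, was named per comparison; the other targets called at day 15 were named after their values were seen. Members, lists and marker genes were chosen with earlier results of these data known.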

Additional observations from a re-analysis of the deposited data

How the results depend on the processing

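With 8 libraries left out in turn, the members called ranged from 0 to 5 for genotypes at day 15 (4 with all libraries), 0 to 0 at day 0, 0 to 5 for days in WT mice (3), 0 to 1 for days in *Hsf1* null mice (1) and 0 to 1 for the interaction (0); pathway calls ranged from 1 to 12 (8), 0 to 0, 2 to 17 (15), 0 to 4 (3) and 0 to 2 (0). DESeq2 called 5 members and 12 pathway genes at day 15, 5 members for days in WT mice and 2 for the interaction, and 5 and 4 pathway genes for days in null mice and the interaction. Thinning to the smallest library left 1 member at day 15. Fitting only the groups compared left 0 members and 0 pathway genes at day 15, and 1 and 9 for days in WT mice. No filter gave 1 pathway call for the interaction. The replicate numbers did not pair the mice (correlations of same-numbered deviations from -0.29 to 0.15). With the replicate block 3 members were called at day 15 (*Il33* at log2 fold change 2.98, edgeR adjusted p = 0.0611), and 3, 1 and 0 for days in WT, days in null and the interaction, with 1 pathway call for the interaction. Chosen after seeing the data, exchanging the WT day 0 mice in the block gave 16, 6 and 2 pathway calls at day 15, for days in null mice and for the interaction, and dropping the 2 smallest libraries gave 0, 0 and 0 members and 1, 1 and 0 pathway genes at day 15, for days in WT and for days in null mice.

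Of the values near 0, *Il1rn* turned sign under thinning (-0.0025 at day 15, 0.060 at day 0, -0.063 for the interaction) and with only the groups compared (-0.0092 at day 15). Without the 2 smallest libraries *Il1b* was at 0.19 and *Il1r2* at 0.070 at day 0, and *Il1b* at 0.49 and *Il18* at 0.10 for days in null mice. With libraries left out, the signs of these varied: *Il1rn* from -0.39 to 0.33 at day 15, -0.25 to 0.079 at day 0 and -0.29 to 0.42 for the interaction; *Il1rl1* from -0.26 to 2.998 at day 15, -0.82 to 3.32 for days in WT and -2.95 to 1.19 for the interaction; *Il18* from -0.039 to 0.47 at day 0 and -0.38 to 0.13 for days in null; *Il1a* from -1.32 to 3.44 for the interaction; *Il1b* from -1.07 to 0.15 at day 0 and -0.88 to 0.52 for days in null; and *Il1r2* from -1.33 to 0.52 for days in null. The cause was not tested. Of all member values under alternatives, 699 kept direction and side of the threshold, 54 lost it, 10 gained it and 26 turned sign. Only the results called with all libraries could lose it, 4 at day 15, 3 for days in WT mice and 1 for days in null mice. The 699 also hold the day 0 and interaction values, where none was called, and so do not measure how stable the calls were. Depth limits *Il1a* most, at 0 to 7 counts outside the WT day 15 mice.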

Other observations

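For each member, the 3 tested genes with the most similar log2 CPM over the 8 mice were listed by Pearson's r, as a description in which WT day 15 mouse 2 weighs heavily and all genes share the same libraries. The nearest genes of *Il1b* were *Fpr2*, *Heatr1* and *Ifitm6* (r from 0.972 to 0.987), of which *Fpr2* encodes a formyl peptide receptor of phagocytes. Those of *Il1r2* were *Mmp8*, a neutrophil collagenase, *Ifitm1* and *Atf4* (0.979 to 0.983), and those of *Il33* were *Fgf23*, *Ifitm6* and *Arid3b* (0.963 to 0.974). *Mmp8* passed the filter on low counts only through the WT day 15 mice and so had to be high there. *Fgf23* had 131 counts in WT day 15 mouse 2 and at most 5 in any other mouse. *Ifitm6* was near both *Il1b* and *Il33*. *Il1a* was nearest to *Gm2a*, *Pou2f2* and *Agap2* (0.970 to 0.973), *Il1r1* to *Pepd*, *Tcf7* and *Slc35b1* (0.973 to 0.978), and *Il1rl1* to *Rasgrp1*, *Nab2* and *Basp1* (0.971 to 0.974). *Il1rap* was nearest to *Tom1l1*, *Senp7* and *Pawr* (0.985 to 0.990), *Il1rn* to *Phtf1*, *Atp6v1g2* and *Icosl* (0.952 to 0.969), and *Il18* to *Scd2*, *Fbxl22* and *Zfp532* (0.970 to 0.9748).

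Further marker lists gave these sums. T cell markers were at 113 and 194 CPM in the WT day 15 mice, 49.3 and 83.3 CPM in the null day 15 mice and 14.7 to 59.6 CPM at day 0. B cell markers were at 398 and 831 CPM, 170 and 194 CPM, and 14.4 to 194 CPM. Markers of type 2 lymphoid cells, which carry ST2, were at 28.5 and 36.8 CPM, 12.2 and 16.2 CPM, and 11.8 to 19.0 CPM, from 3 of the 6 listed. Smooth muscle markers ran the other way, at 3460 and 2024 CPM, 5010 and 5814 CPM, and 6620 to 9450 CPM. All 6 were lower in both WT mice than in both null mice at day 15, against 26.2% of all tested genes, and 0 of the 6 were called. Enteric glia and neuron markers were at 93.1 and 57.4 CPM, 153.8 and 95.4 CPM, and 48.1 to 67.8 CPM. *Il1f6*, which encodes IL-36α, had 9 counts, all in 1 WT day 15 mouse, and 0 in the other 7 mice.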
